A study of Mus musculus with 34 samples.

Results

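The extracellular matrix of skeletal muscle holds many proteins besides collagen, and 34 genes that encode or act on them were followed here through 4 knockout genotypes and their controls. The genes were taken from the count table by Ensembl ID as a list of named proteoglycans, glycoproteins, elastic fiber proteins, cross-linking enzymes and matrix proteases with their inhibitors, plus Pdgfra, the receptor that marks muscle fibroblasts. The rule names genes and uses no measured value, but the list was drawn up with earlier results of these data known. All 34 were among the 46071 genes of the table, and all 34 passed the filter on low counts that left 13646 genes to test. By role they are 7 small leucine-rich proteoglycans, 8 adhesive or matricellular glycoproteins, 9 elastic fiber genes, 3 cross-linking enzymes, 6 proteases or inhibitors, and 1 receptor.

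RNA came from mixed powdered quadriceps and gastrocnemius of male mice. The insulin receptor was deleted in MIRKO muscle (n = 4), the receptor for IGF-1 in MIGF1RKO muscle (n = 5), and both receptors in MIGIRKO muscle (n = 6). QKO mice (n = 7) lacked both receptors and also FoxO1, FoxO3 and FoxO4, transcription factors that insulin signalling keeps out of the nucleus. The controls were floxed littermates from the same colony: IRlox (n = 3) for MIRKO, IGFRlox (n = 4) for MIGF1RKO, IRIGFRlox (n = 3) for MIGIRKO and Qlox (n = 2) for QKO. MIRKO, MIGIRKO and QKO were made with Acta1-Cre, which is driven by the skeletal actin promoter and so recombines in muscle fibers, while the driver of MIGF1RKO was not stated for this line. Each line was a separate colony on a mixed background of C57Blk6, C57Blk6J and 129, and the Nnt gene, a mitochondrial transhydrogenase, was heterozygous in MIGIRKO and IRIGFRlox and of mixed genotype in MIRKO, IRlox, QKO and Qlox. Ages were not given in the sources used here.

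Fibroblasts and fibro-adipogenic progenitors, which lie between the fibers, make most of this matrix, whereas the fibers themselves make little of it. Small leucine-rich proteoglycans bind collagen fibrils and set their spacing, elastic fibers form when elastin is laid onto fibrillin microfibrils, and lysyl oxidases join collagen and elastin chains. Matricellular glycoproteins such as periostin rise during repair, and metalloproteinases with their tissue inhibitors (TIMPs) govern turnover.

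Total counts ran from 1499025 to 7581198 per library. Insr, the insulin receptor gene, was lower in MIRKO, MIGIRKO and QKO, with log2 changes of -1.83, -1.68 and -1.99. By edgeR, Igf1r was lower in QKO (-1.09, adjusted p = 0.027), and in MIGF1RKO its log2 change of -0.75 was not called (adjusted p = 0.1). Igf1r was not lower in MIGIRKO at the level of whole-gene counts (log2 change 0.00 ± 0.21 (SE), adjusted p = 0.99). Foxo3 was not lower in QKO (0.29, adjusted p = 0.71), while Foxo1 and Foxo4 were (-2.98 and -4.57). Genotypes below are therefore those of the labels. Across genes the library labelled MIRKO 4 was closest to MIGIRKO 3 (r = 0.978), and MIGIRKO 1 and MIGIRKO 3 were closest to it. Closest to the library labelled MIGIRKO 6 was MIRKO 3 (r = 0.970), and MIRKO 1, MIRKO 3 and QKO 6 had MIGIRKO 6 as their closest. Matches across groups were found elsewhere too: MIRKO 2 was closest to MIGF1RKO 4, and IRlox 3 and IRIGFRlox 3 were closest to IGFRlox 4. On a scale from 0 (mean of IRIGFRlox) to 1 (mean of IRlox) over the 40 genes with the smallest p between these floxed groups, MIRKO 4 stood at 0.653 and the other MIRKO libraries at 0.920 to 1.00. MIGIRKO 6 stood at 0.980 and the other MIGIRKO libraries at 0.628 to 0.867. The IRIGFRlox libraries, whose mean is 0 by construction, stood at -0.0913, 0.124 and -0.0332. Every MIGIRKO library thus lay well above its own controls, so the scale does not tell colony from genotype. Whether the labels of MIRKO 4 and MIGIRKO 6 were exchanged was not tested, and counts that rest on these libraries are also given without both. The tissue carried its defining transcripts: the summed level of 8 muscle fiber markers was at least 59560 CPM in every library, CPM being counts scaled to a common library total.

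Levels are given below in CPM, and per kilobase of exon (RPKM) where genes are compared with each other. In the 12 floxed libraries Sparc, a collagen-binding glycoprotein, had the highest level of the 34 genes at 296 ± 105 RPKM (SD, n = 12). Decorin (Dcn), the commonest small proteoglycan of muscle, followed at 122.5 ± 15.5 RPKM (SD, n = 12), then Thbs4, a thrombospondin of tendon and muscle, at 104.6 ± 42.0 RPKM (SD, n = 12). Each role had its leading gene: Dcn among the proteoglycans, Sparc among the glycoproteins, fibrillin 1 (Fbn1, 19.9 ± 4.18 RPKM) among the elastic fiber genes, Lox (11.3 ± 4.70 RPKM) among the cross-linking enzymes and Timp2 (51.8 ± 8.10 RPKM) among the proteases and inhibitors. Fibrillin 2 (Fbn2), which is made mainly before birth, was at the bottom at 0.108 ± 0.064 RPKM (SD, n = 12). Down the whole order, neighbouring genes overlapped in range, except that Fbn2 lay below its neighbour Timp1 (2.09 ± 1.08 RPKM) in every library.

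Among the floxed groups the means of these genes were ordered alike for most of them, without passing a test. IRlox had the highest of the 4 floxed means for 29 of the 34, and IRIGFRlox had the lowest for 21 and Qlox for 11. None of the 34 passed the test across the 4 floxed groups by edgeR, with 10 at an unadjusted p under 0.05, and none passed by DESeq2 or limma-voom, where 0.264% of all tested genes were called by edgeR. Here and below, counts at an unadjusted p carry no share of all tested genes at that threshold. Sparc had the smallest p of the 34 (0.005, adjusted p = 0.22), at 491.6, 1169 and 625.0 CPM in IRIGFRlox and 1298 to 1658 CPM in IRlox, 2 groups that do not overlap. Both Qlox libraries also differed from each other: Qlox 1 was below Qlox 2 for 32 of the 34 genes, with a median log2 ratio of -0.60, while 50.1% of all tested genes were lower in Qlox 1.

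In MIGIRKO muscle, which lacked both receptors, 27 of the 34 genes were higher than in IRIGFRlox and none was lower by edgeR's quasi-likelihood test at an adjusted p under 0.05 (31 at an unadjusted p under 0.05). Over all tested genes, 33.7% were called in this comparison, 17.0% as higher and 16.7% as lower. The median log2 change of the 34 was 0.94, from -0.072 for Timp3 to 3.94 for Timp1, against 0.04 over all tested genes. DESeq2 called 28 and limma-voom 28. All 6 MIGIRKO libraries lay above all 3 IRIGFRlox libraries for 21 of the 34 genes, compared with 15.2% of all tested genes. Together the 34 genes took 0.634% to 1.00% of counts in MIGIRKO and 0.264%, 0.424% and 0.297% in IRIGFRlox. These shares rest on unscaled totals, where a gene level after scaling also takes a larger share in MIGIRKO. The mean factor that scales the totals was 1.23 in MIGIRKO and 0.876 in IRIGFRlox. With whole tissue, more cells of a type and more RNA per cell cannot be told apart. Each p-value sets a difference against the spread between libraries within groups, estimated for each gene over all 8 groups.

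The control colony bears on these values. With all 12 floxed libraries as control 24 of the genes were called and the median was 0.59, and without IRIGFRlox 1 the calls fell to 18, losing Fn1, Prelp, Dcn, Sparc, Mfap4, Thbs4, Fbln1, Thbs2 and Fbn2. The 33.7% of all tested genes called belongs to the full IRIGFRlox control, and no share is given for these other controls. In the 3 runs of consecutive library numbers that held both genotypes, with 1 library of each, 31, 30 and 33 of the 34 were higher in MIGIRKO, with median log2 ratios of 0.83, 0.55 and 1.26, and 28 were higher in all 3, as were 28.1% of all tested genes.

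**Figure D1:**
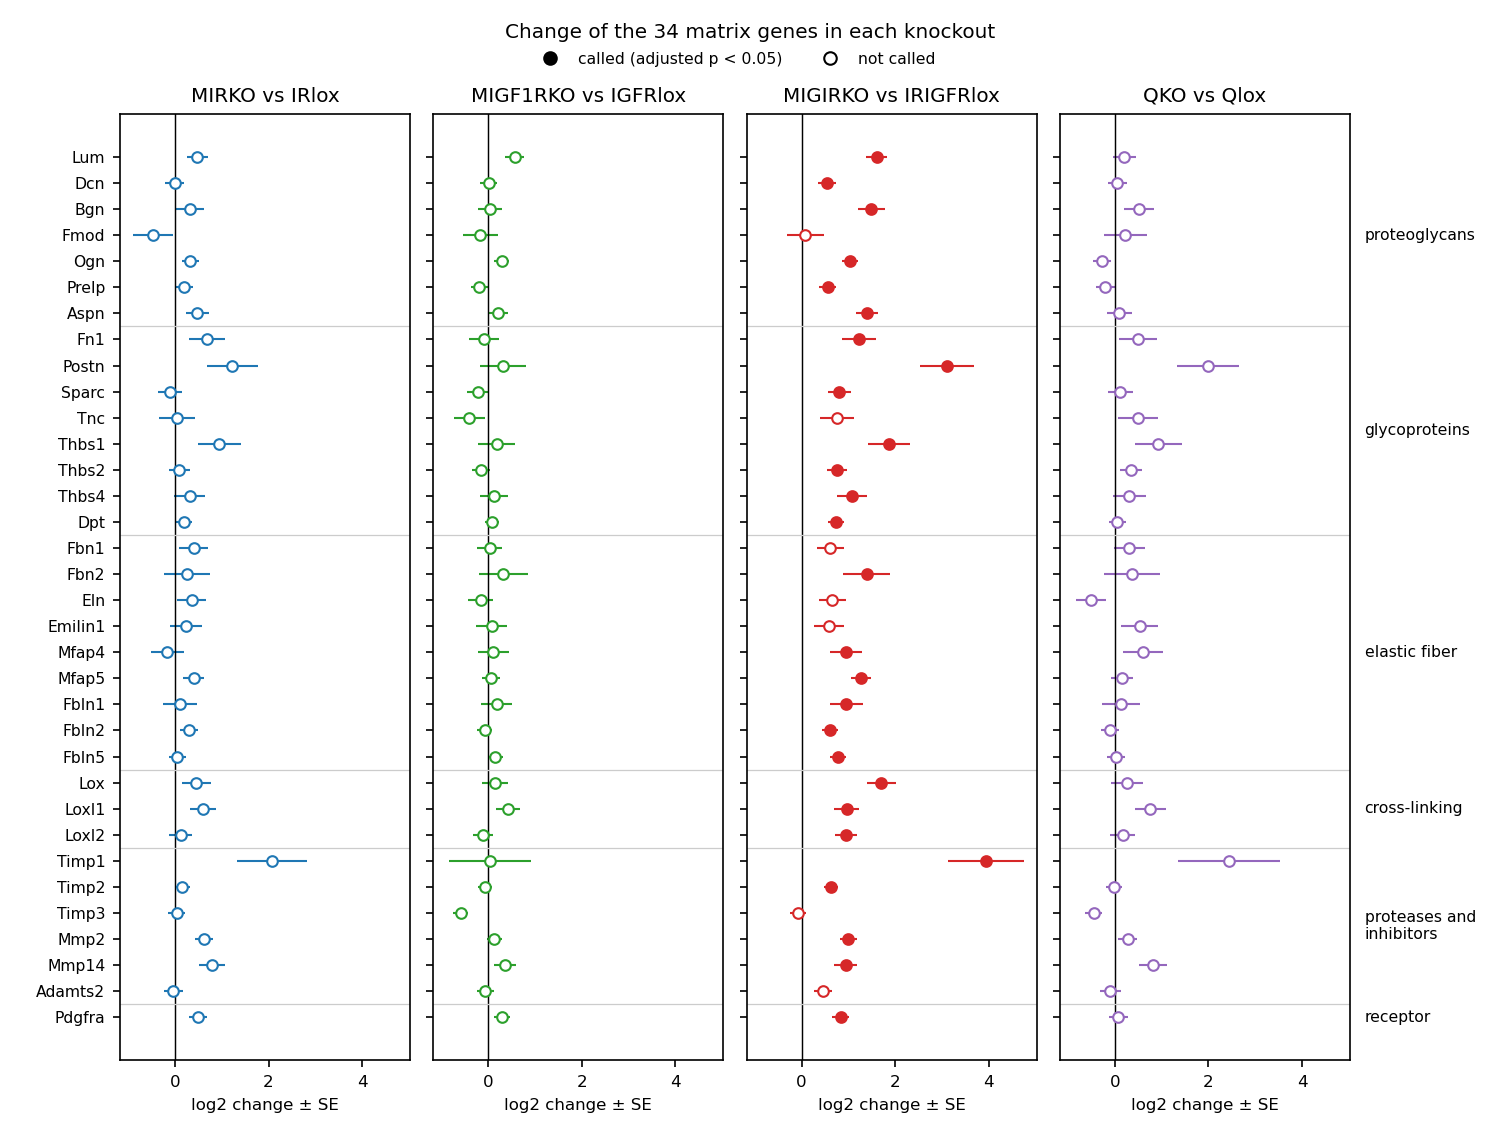
Log2 change of each of the 34 genes in the 4 knockout genotypes against their own floxed controls, with lines for ± SE and genes grouped by role. Filled points are called at an adjusted p under 0.05: 27 in MIGIRKO and none in the other genotypes.

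The promoters of 3 genes called in MIGIRKO are shown because these had the smallest adjusted p among the members with an entry in the promoter table. They are the 250 bases before the annotated start, from RefSeq on GRCm38.p6, 5′ to 3′ on the gene's own strand. Aspn spans chr13:49544193-49544442, Ogn chr13:49607765-49608014 and Postn chr3:54360857-54361106, all on the plus strand. Capitals mark matches to the motifs searched.
Aspn: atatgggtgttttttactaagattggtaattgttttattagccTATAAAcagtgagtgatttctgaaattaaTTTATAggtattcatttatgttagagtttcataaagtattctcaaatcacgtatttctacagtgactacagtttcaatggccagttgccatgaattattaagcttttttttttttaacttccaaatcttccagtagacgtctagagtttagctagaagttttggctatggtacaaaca
Ogn: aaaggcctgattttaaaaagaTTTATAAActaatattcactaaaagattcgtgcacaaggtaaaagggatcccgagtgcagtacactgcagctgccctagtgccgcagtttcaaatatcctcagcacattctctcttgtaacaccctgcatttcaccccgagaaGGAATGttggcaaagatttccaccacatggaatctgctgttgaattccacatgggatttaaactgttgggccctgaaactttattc
Postn: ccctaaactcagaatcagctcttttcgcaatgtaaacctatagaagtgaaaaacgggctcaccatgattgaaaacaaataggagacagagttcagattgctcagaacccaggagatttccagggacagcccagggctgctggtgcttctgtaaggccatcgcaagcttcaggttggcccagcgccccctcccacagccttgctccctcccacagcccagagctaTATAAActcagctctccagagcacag

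The search covered both strands for 5 motifs: the forkhead core GTAAACA, the SMAD core CAGACA, the TEAD core GGAATG, the AP-1 core TGANTCA and the TATA box TATAAA. Their shares over all 32851 windows of that length were 3.17%, 17.1%, 12.6%, 6.75% and 12.4%, in the same order. Of the 34 genes, 22 had a window, and of these 0 held GTAAACA, 5 held CAGACA (Sparc, Thbs2, Thbs4, Emilin1 and Fbln1), 3 held GGAATG (Ogn, Thbs4 and Timp1), 0 held TGANTCA and 5 held TATAAA (Ogn, Aspn, Postn, Tnc and Thbs2). In the Postn window TATAAA ends 20 bases before the start, the place usual for a TATA box. In the Aspn window its matches end 201 and 172 bases before the start, and in the Ogn window the matches on both strands overlap and end 223 and 221 bases before it. These matches are letters only and describe no binding.

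Among the proteoglycans 6 of 7 rose in MIGIRKO, with a median log2 change of 1.03. Lumican (Lum, chromosome 10, 97565128 to 97572703, GRCm38), which keeps collagen fibrils thin and evenly spaced, had the smallest adjusted p. It was at 25.4, 26.7 and 33.3 CPM in IRIGFRlox and at 58.1, 84.3 and 114.8 CPM (lowest, median, highest) in MIGIRKO. The groups did not overlap, and the log2 change was 1.60 ± 0.23 (SE, adjusted p = 3.9e-06).

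Asporin (Aspn, chromosome 13, 49544443 to 49567565), a proteoglycan that binds TGF-beta and collagen, was at 22.2, 33.2 and 42.3 CPM in IRIGFRlox and at 58.0, 90.9 and 112.3 CPM in MIGIRKO. Its log2 change was 1.40 ± 0.24 (adjusted p = 5.1e-05). Osteoglycin (Ogn, chromosome 13, 49608046 to 49624501), which lies next to it on the chromosome, was at 51.8, 66.3 and 73.2 CPM and at 106.7, 128.0 and 155.7 CPM, a log2 change of 1.03 ± 0.18 (adjusted p = 5.9e-05). Neither gene's groups overlapped. Biglycan (Bgn), which carries paired glycosaminoglycan chains and binds fibrillar collagen, was at 128.7, 194.4 and 123.4 CPM against 307.4, 403.5 and 601.0 CPM, again with no overlap (1.49 ± 0.29, adjusted p = 0.00021).

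The gains of Dcn and Prelp were smaller. Dcn was at 544.0, 656.8 and 742.0 CPM in IRIGFRlox and at 742.0, 991.4 and 1083 CPM in MIGIRKO, the lowest MIGIRKO value being level with the highest control to the digits given (0.54 ± 0.19, adjusted p = 0.026). Prelp, which anchors basement membrane to connective tissue, was at 41.0, 75.8 and 65.5 CPM and at 72.5, 93.3 and 100.7 CPM, and its groups overlapped (0.55 ± 0.18, adjusted p = 0.020). Some 9.68% of its exon length overlaps Gm15851 on the opposite strand. Fibromodulin (Fmod), the seventh proteoglycan and one abundant in tendon, had a log2 change of 0.08 ± 0.40 (adjusted p = 0.90).

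Of the glycoproteins 7 of 8 rose, with a median of 0.94. Periostin (Postn, chromosome 3, 54361109 to 54391037), a matricellular protein of healing and scarring tissue, was at 12.3, 16.0 and 12.4 CPM in IRIGFRlox and at 56.2, 109.1 and 193.2 CPM in MIGIRKO. Every MIGIRKO library was above the highest control, and the log2 change was 3.11 ± 0.58 (adjusted p = 0.00021). Dermatopontin (Dpt), which links decorin to collagen, moved less but with a narrow spread, from 46.2, 45.4 and 44.0 CPM to 64.8, 74.2 and 88.6 CPM (0.73 ± 0.16, adjusted p = 0.00091).

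The thrombospondins are secreted proteins that bind cells, matrix and growth factors. Thbs1, an activator of latent TGF-beta, was at 42.8, 51.6 and 83.3 CPM and at 125.7, 187.4 and 414.9 CPM (1.86 ± 0.45, adjusted p = 0.0023). Thbs2, a modulator of fibril assembly, was at 36.1, 63.6 and 42.7 CPM and at 67.2, 76.8 and 101.0 CPM (0.75 ± 0.21, adjusted p = 0.0058). Groups overlapped for neither of these. Thbs4 was at 248.5, 463.0 and 234.6 CPM and at 433.4, 699.6 and 833.3 CPM, with IRIGFRlox 2 above the lowest MIGIRKO library (1.08 ± 0.32, adjusted p = 0.010). Sparc, at 491.6, 1169 and 625.0 CPM and at 810.0, 1295 and 1750 CPM, overlapped in the same way (0.80 ± 0.24, adjusted p = 0.012). Fibronectin (Fn1), the adhesive scaffold of new matrix, also rose (1.22 ± 0.36, adjusted p = 0.011), and tenascin C (Tnc), an anti-adhesive protein of repair, had a log2 change of 0.76 ± 0.36 (adjusted p = 0.11).

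**Figure D2:**
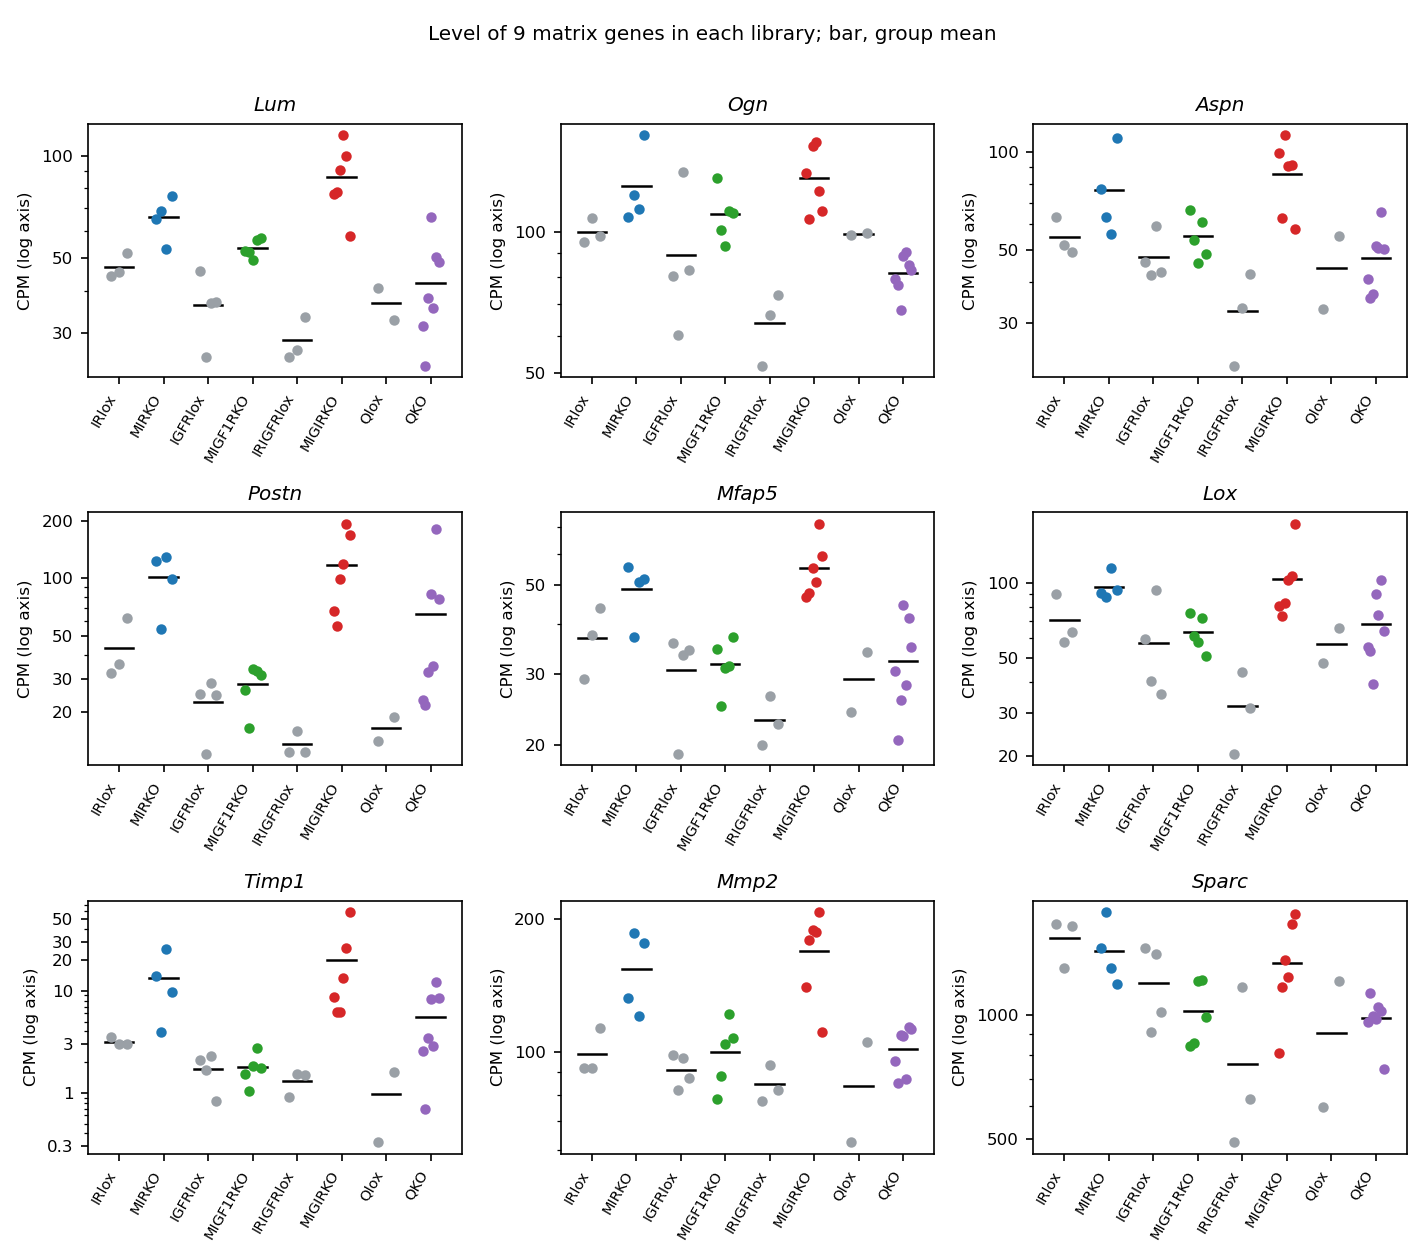
CPM per library on log axes for 9 of the genes (Lum, Ogn, Aspn, Postn, Mfap5, Lox, Timp1, Mmp2 and Sparc) in the 8 groups, with 1 point per library and a bar at the group mean. The MIGIRKO points of Lum, Ogn and Mfap5 lie above all IRIGFRlox points, and the QKO points of Ogn and Mfap5 lie below all MIGIRKO points.

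Of the elastic fiber genes 6 of 9 rose, with a median of 0.78. Mfap5 (chromosome 6, 122505845 to 122529290), a microfibril glycoprotein that binds fibrillin, was at 20.0, 26.5 and 22.6 CPM in IRIGFRlox and at 46.8, 53.1 and 71.2 CPM in MIGIRKO, with no overlap (1.26 ± 0.21, adjusted p = 4.3e-05). The fibulins tie elastin, microfibrils and basement membrane together. Fbln5 was at 20.1, 20.1 and 15.4 CPM against 25.0, 32.9 and 35.4 CPM (0.78 ± 0.17, adjusted p = 0.0006), and Fbln2 at 115.5, 119.3 and 74.9 CPM against 138.4, 147.4 and 197.2 CPM (0.61 ± 0.18, adjusted p = 0.0082). Neither overlapped between groups. Fbln1, at 13.1, 21.0 and 10.7 CPM against 16.8, 30.6 and 35.2 CPM, did overlap (0.96 ± 0.35, adjusted p = 0.032).

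The fibrillins are the core of the microfibril. Fbn2 was at 1.22, 1.15 and 0.427 CPM and at 1.54, 2.32 and 4.24 CPM (1.39 ± 0.51, adjusted p = 0.033), levels at which few reads stand behind each value. Fbn1, the most abundant elastic fiber gene, was at 212.7, 270.8 and 159.7 CPM and at 219.7, 291.7 and 462.0 CPM and did not pass the test (0.61 ± 0.29, adjusted p = 0.10). Some 20.1% of its exon length overlaps another gene, Gm9913, on the opposite strand, and the strand setting of the counting was not given in the sources used here. Mfap4, another microfibril protein, rose (0.95 ± 0.35, adjusted p = 0.036). Elastin itself (Eln) and Emilin1, which sits between elastin and microfibrils, had log2 changes of 0.66 ± 0.29 (adjusted p = 0.082) and 0.58 ± 0.32 (adjusted p = 0.16).

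All 3 cross-linking enzymes rose, with a median of 0.97. Lysyl oxidase (Lox), which starts the covalent cross-links of collagen and elastin, was at 20.4, 43.9 and 31.2 CPM in IRIGFRlox and at 73.7, 93.3 and 173.8 CPM in MIGIRKO, with no overlap (1.71 ± 0.32, adjusted p = 0.00015). Loxl1, the family member tied to elastic fiber upkeep, was at 13.6, 14.3 and 9.61 CPM and at 15.9, 23.9 and 31.9 CPM (0.97 ± 0.27, adjusted p = 0.0055). Loxl2, which cross-links basement membrane collagen, was at 24.2, 34.0 and 27.8 CPM and at 31.9, 54.9 and 77.6 CPM (0.95 ± 0.23, adjusted p = 0.0021). The groups of Loxl1 did not overlap, and those of Loxl2 did.

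Among the proteases and inhibitors 4 of 6 rose, with a median of 0.78, and both kinds were among them. Timp1 (chromosome X, 20870166 to 20874735), an inhibitor induced in injured tissue, was at 0.914, 1.53 and 1.49 CPM in IRIGFRlox and at 6.18, 11.0 and 59.0 CPM in MIGIRKO. It had the largest change of the 34 genes and a wide spread (3.94 ± 0.81, adjusted p = 0.00052). Gelatinase A (Mmp2, chromosome 8, 92827291 to 92853420) was at 77.7, 93.6 and 82.2 CPM and at 111.1, 182.6 and 206.9 CPM (1.00 ± 0.18, adjusted p = 0.0001). Mmp14, the membrane protease that activates Mmp2 together with Timp2, was at 29.3, 33.0 and 29.7 CPM and at 49.7, 56.7 and 74.1 CPM (0.94 ± 0.25, adjusted p = 0.0049). Timp2 was at 154.5, 224.7 and 165.6 CPM and at 225.0, 284.3 and 313.0 CPM (0.63 ± 0.16, adjusted p = 0.0026). None of these 4 overlapped between groups. Adamts2, which trims procollagen, had a log2 change of 0.46 ± 0.19 (adjusted p = 0.06). Timp3, a matrix-bound inhibitor, had one of -0.072 ± 0.17 (adjusted p = 0.78) that turned to 0.42 with plain library totals, and 21.3% of its exon length overlaps Syn3 on the opposite strand.

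Pdgfra (chromosome 5, 75152292 to 75198215), the receptor for platelet-derived growth factor on fibro-adipogenic progenitors, rose as well. It was at 68.4, 76.2 and 53.8 CPM in IRIGFRlox and at 93.6, 120.5 and 134.5 CPM in MIGIRKO, with no overlap (0.84 ± 0.18, adjusted p = 0.00071).

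Markers of other cells were also called in this comparison, where 17.0% of all tested genes were higher and 16.7% lower. Of 18 fibroblast and progenitor markers that share no gene with the 34, 9 were higher in MIGIRKO, with a median of 0.69, and their summed level was 7706 to 11391 CPM against 3485 to 7904 CPM in IRIGFRlox. All 10 immune markers were higher (589.7 to 1642 CPM summed, against 175.9 to 263.9 CPM), as were 7 of 8 adipocyte markers (1382 to 2690 CPM against 935.3 to 1401 CPM). Of 6 Schwann cell markers 4 were higher, of 6 smooth muscle and pericyte markers 3 and of 4 satellite cell markers 2. Of 9 tendon markers 2 were higher, a share near that of all genes, and their summed levels overlapped (413.5 to 535.7 CPM against 201.4 to 586.8 CPM). Of 7 endothelial markers 0 were called by edgeR, DESeq2 or limma-voom and 2 were at an unadjusted p under 0.05 by each, with summed levels of 352.8 to 440.7 CPM against 428.9 to 506.3 CPM. Muscle fiber markers went the other way, 4 of 8 being lower (59560 to 94539 CPM against 158996 to 172209 CPM). What part these cells had in the changes of the matrix genes was not tested.

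**Figure D3:**
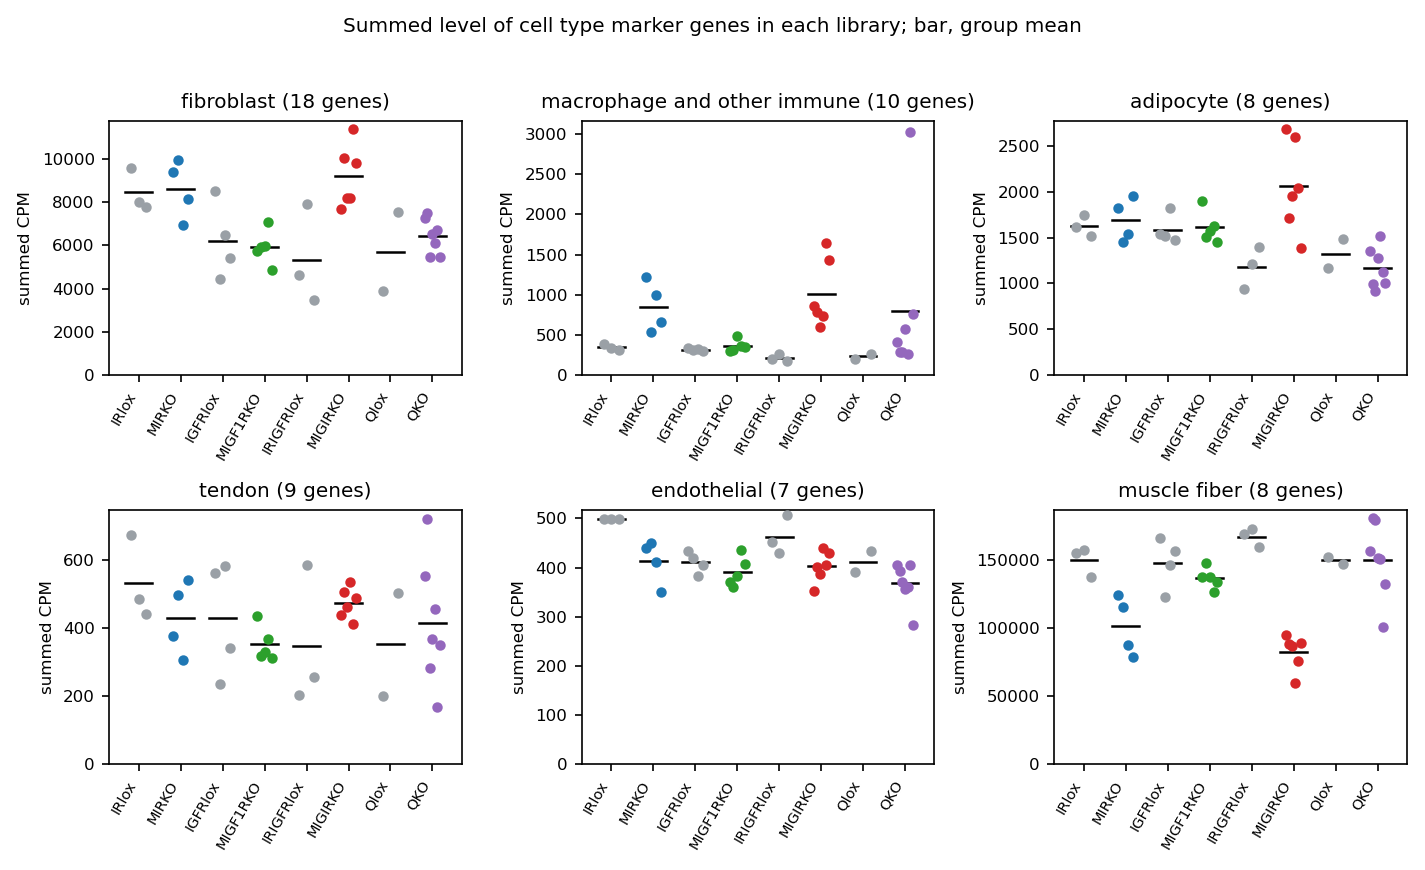
Summed CPM of 6 marker lists (fibroblast, immune, adipocyte, tendon, endothelial, muscle fiber) on linear axes, with 1 point per library and a bar at the mean of each of the 8 groups. Immune markers in MIGIRKO (589.7 to 1642 CPM) lie above IRIGFRlox (175.9 to 263.9 CPM), muscle fiber markers lie below it, and QKO 6 has the highest immune sum at 3027 CPM.

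Other genes of the same biology were counted in MIGIRKO from 4 lists, to be read against the 17.0% of all tested genes that were higher and the 16.7% that were lower. TGF-beta signalling, the main inducer of matrix genes in fibroblasts, had 10 of 28 tested genes higher and 3 lower, while Inhba was not tested. Of these, Mstn, the myostatin made by muscle fibers, fell by 2.85 ± 0.37 on the log2 scale (adjusted p = 2e-06), its inhibitor follistatin (Fst) rose (1.61 ± 0.28, adjusted p = 7.2e-05), and the signal carrier Smad3 fell (-1.06 ± 0.19, adjusted p = 9.8e-05). Among 17 matrix receptors 8 were higher and 1 lower, those with the smallest adjusted p among the higher being the fibronectin receptor subunit Itga5 (1.75 ± 0.30, adjusted p = 5.8e-05), the heparan sulfate proteoglycan Sdc2 (0.98 ± 0.21, adjusted p = 0.00069) and the collagen receptor Ddr2 (0.74 ± 0.18, adjusted p = 0.0018). Itgb5, an integrin subunit for vitronectin, was the 1 that fell (-0.57 ± 0.15, adjusted p = 0.0034).

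Among 21 further matrix proteases and inhibitors 9 were higher and 1 lower. Of the higher genes, those with the smallest adjusted p were the metalloproteinase Mmp19 (2.37 ± 0.47, adjusted p = 0.0003), the collagen-degrading cathepsin Ctsk (1.00 ± 0.26, adjusted p = 0.0041) and the plasminogen activator Plau (0.80 ± 0.22, adjusted p = 0.0049), and the inhibitor Timp4 fell (-0.93 ± 0.31, adjusted p = 0.021). Of 10 basement membrane genes 4 were higher: the laminin chains Lama4 (0.67 ± 0.18, adjusted p = 0.0047) and Lamb1 (0.60 ± 0.17, adjusted p = 0.0086) and the linkers Nid1 (0.60 ± 0.16, adjusted p = 0.0052) and Nid2 (0.55 ± 0.18, adjusted p = 0.02). In QKO none of the 76 tested genes of these 4 lists was called by edgeR, DESeq2 or limma-voom, with 6, 8 and 2 at an unadjusted p under 0.05.

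In MIRKO muscle, without the insulin receptor alone, none of the 34 genes passed edgeR's test against IRlox, where 1.25% of all tested genes did. At an unadjusted p under 0.05 there were 8, all of them above IRlox: Lum, Postn, Thbs1, Loxl1, Timp1, Mmp2, Mmp14 and Pdgfra. The 1.25% is at the adjusted threshold, and no share of all tested genes is given at the unadjusted one. DESeq2 called 1 (Mmp2) and limma-voom 0. The median log2 change was 0.30 against 0.03 over all tested genes, and 29 of the 34 lay above 0. In the same libraries immune markers summed to 534.5 to 1220 CPM against 309.1 to 384.6 CPM in IRlox, with 0 of 10 called. Fibroblast markers overlapped (6964 to 9960 CPM against 7790 to 9576 CPM), with 0 of 18 called and a median log2 change of 0.08. Medians were -0.29 for tendon, -0.21 for smooth muscle, -0.19 for endothelial and -0.08 for Schwann markers. They were 0.32 for adipocyte and 0.35 for satellite cell markers, and no marker of these lists was called. Muscle fiber markers summed to 78776 to 123630 CPM against 137082 to 157116 CPM, with myoglobin (Mb) lower (-1.67 ± 0.29, adjusted p = 0.0054). The part of these cells in the values of the matrix genes was not tested. Mmp2 was at 92.1, 92.1 and 113.3 CPM in IRlox and at 132.5, 185.4, 120.3 and 176.0 CPM in MIRKO (0.63 ± 0.19, adjusted p = 0.091). Mmp14 was at 30.9, 29.9 and 37.1 CPM and at 60.5, 65.7, 52.5 and 48.4 CPM (0.79 ± 0.27, adjusted p = 0.13). Neither gene's groups overlapped, nor did those of Lum, Ogn, Timp1 and Pdgfra, 6 genes in all with every MIRKO library the higher, as for 7.88% of all tested genes. With all 12 floxed libraries as control 17 of the 34 were called and the median was 0.56, IRlox being the floxed group with the highest values. The 1.25% above belongs to the IRlox control, and no share of all tested genes is given for the pooled one. Only 1 run held both genotypes, and there 28 of 34 were higher in MIRKO, as were 49.8% of all tested genes.

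The gap between the changes in MIGIRKO and in MIRKO, tested directly, was called for none of the 34 and for 0.00% of all tested genes by edgeR. At an unadjusted p under 0.05 there were 14, and neither DESeq2 nor limma-voom called any. Its median was 0.68, and for Lum it was 1.12 with a 95% interval from 0.51 to 1.73. For Mmp14 the interval ran from -0.56 to 0.86. Without the libraries labelled MIRKO 4 and MIGIRKO 6 the difference was called for 4 genes, Lum, Fbln5, Aspn and Ogn, and the MIGIRKO change itself for 25. The 0.00% above belongs to the fit with all libraries, and no share of all tested genes is given for the fit without them.

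In MIGF1RKO muscle, without the IGF-1 receptor, none of the 34 passed edgeR's test against IGFRlox, where 0.616% of all tested genes did, and 2 were at an unadjusted p under 0.05. One was Lum, at 45.8, 25.4, 36.7 and 37.1 CPM in IGFRlox and at 52.5, 52.1, 49.3, 56.2 and 57.0 CPM in MIGF1RKO (0.56 ± 0.20, adjusted p = 0.25). It was the 1 gene of the 34 with every MIGF1RKO library above every control, as for 2.45% of all tested genes. The other was Timp3, at 100.5, 154.5, 126.2 and 128.2 CPM and at 72.9, 62.0, 82.2, 109.7 and 96.8 CPM, with overlap (-0.59 ± 0.16, adjusted p = 0.094). DESeq2 called Timp3 only, limma-voom called 0, and edgeR called Timp3 when MIGF1RKO 4 was left out. The median over the 34 was 0.06, and in the 3 runs with both genotypes 10, 31 and 9 genes were higher in MIGF1RKO.

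The MIGIRKO change exceeded the MIGF1RKO change for 13 of the 34 genes by the test of the difference itself, where 8.58% of all tested genes were called, 3.67% with the larger value in MIGIRKO. The 13 held genes of each role except the receptor: Lum (1.04), Aspn (1.19), Ogn (0.75) and Bgn (1.45), then Postn (2.80), Sparc (1.03) and Thbs2 (0.91), then Mfap5 (1.21), then Lox (1.57) and Loxl2 (1.06), then Mmp2 (0.87), Timp2 (0.70) and Timp1 (3.90), each value a difference of log2 changes. The median difference over the 34 was 0.83. DESeq2 called 19 and limma-voom 11. This count leaned on single libraries: it was 1 without IRIGFRlox 1 (Mfap5), 4 without IRIGFRlox 3, 6 without IGFRlox 3, 7 without IGFRlox 1 or MIGIRKO 5, and 8 without MIGF1RKO 2 or MIGF1RKO 5. With the library runs as a block 10 genes were called, Dpt and Fbln5 joining and Lum, Sparc, Ogn, Lox and Timp1 losing their call. There were 15 when the libraries labelled MIRKO 4 and MIGIRKO 6 were left out, and Sparc was not among them. Mfap5 alone (adjusted p = 0.0098) was called in every alternative run.

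In QKO muscle, without both receptors and the 3 FoxO factors, none of the 34 passed edgeR's test against Qlox, where 0.506% of all tested genes did. At an unadjusted p under 0.05 there were 5, and DESeq2 and limma-voom called 0 each. The median log2 change was 0.21 against 0.04 over all tested genes, and it ran from -0.066 without Qlox 1 to 0.62 without Qlox 2, so it depended on which of the 2 controls was used. Postn was at 14.1 and 19.0 CPM in Qlox and at 21.9, 34.8 and 180.8 CPM (lowest, median, highest) in QKO, with no overlap (1.98 ± 0.66, adjusted p = 0.23). Timp1 was at 0.327 and 1.60 CPM and at 0.697, 3.47 and 12.2 CPM, with overlap (2.45 ± 1.09, adjusted p = 0.40). The 95% intervals of both are wide, from 0.68 to 3.29 for Postn and from 0.30 to 4.59 for Timp1. With all 12 floxed libraries as control these 2 genes were called, while the 0.506% above belongs to the Qlox control.

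Several proteoglycans of the QKO libraries stood near their controls. Lum was at 40.6 and 32.7 CPM in Qlox and at 24.0, 37.9 and 66.1 CPM in QKO, a log2 change of 0.20 with a 95% interval from -0.29 to 0.69. Aspn was at 33.1 and 55.1 CPM and at 35.9, 50.6 and 65.3 CPM (0.10, interval -0.42 to 0.61). Ogn was at 98.6 and 99.3 CPM and at 68.1, 82.8 and 90.6 CPM, every QKO library being the lower (-0.28, interval -0.66 to 0.10). Mfap5, at 24.2 and 34.1 CPM against 20.6, 30.6 and 44.7 CPM, and Lox, at 47.5 and 66.1 CPM against 39.0, 64.2 and 103.4 CPM, overlapped throughout (0.15, interval -0.32 to 0.62, and 0.27, interval -0.40 to 0.93). Every QKO library was above Qlox for 1 of the 34 (Postn) and below it for 2 (Ogn and Timp3), as for 3.91% and 5.86% of all tested genes.

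Whether the rise seen without both receptors was also present without the FoxO genes was tested as a difference of changes, QKO minus MIGIRKO, each colony being set against its own controls. It was called for 5 of the 34, all with the smaller change in QKO, and for 5.76% of all tested genes, 2.15% in that direction. The 5 were Ogn (-1.31 ± 0.26, adjusted p = 0.0031), Lum (-1.40 ± 0.32, adjusted p = 0.011), Aspn (-1.30 ± 0.34, adjusted p = 0.023), Mfap5 (-1.11 ± 0.31, adjusted p = 0.032) and Lox (-1.44 ± 0.44, adjusted p = 0.049). Thus 3 of them were small proteoglycans, 1 a microfibril protein and 1 a cross-linking enzyme. At an unadjusted p under 0.05 there were 15, DESeq2 called 6 and limma-voom 5. The median difference over the 34 was -0.74 against 0.01 over all tested genes, and the estimate was above 0 for 1 gene. The controls enter this difference too. Both Qlox libraries lay above all IRIGFRlox libraries for Ogn (98.6 and 99.3 CPM against 51.8, 66.3 and 73.2 CPM) and Lox (47.5 and 66.1 CPM against 20.4, 43.9 and 31.2 CPM). For Lum, Aspn and Mfap5 these controls overlapped. The direct difference of QKO from MIGIRKO, given below, was smaller for each of the 5.

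The count of genes called for this difference of changes also moved with single libraries. It was 2 without IRIGFRlox 1, Qlox 1 or Qlox 2, 3 without IRIGFRlox 3, QKO 3 or MIGIRKO 5, 8 without MIGIRKO 6 and 9 without QKO 6. With the library runs as a block it was 4, Aspn and Lox losing their call and Fbln5 gaining one. It was 8 when the libraries labelled MIRKO 4 and MIGIRKO 6 were left out, and Lox was not among them. Ogn was the 1 gene called in every alternative run. Cell markers were counted by the same test, where 5.76% of all tested genes were called, 2.15% with the smaller change in QKO. That change was smaller for 5 of 8 adipocyte, 5 of 6 Schwann, 2 of 6 smooth muscle and 1 of 18 fibroblast markers. It was larger for 4 of 8 muscle fiber markers. The fibroblast share was near that of all genes called, and 0 of the 10 immune, 9 tendon, 7 endothelial and 4 satellite cell markers were called. Fibroblast markers summed to 5450 to 7496 CPM in QKO and to 3867 and 7535 CPM in Qlox. Muscle fiber markers were at 100742 to 180449 CPM and at 146442 and 152243 CPM, and adipocyte markers at 916.6 to 1519 CPM and at 1164 and 1485 CPM. Schwann markers were at 167.9 to 530.6 CPM in QKO, 418.5 and 665.7 CPM in Qlox and 174.9 to 272.1 CPM in IRIGFRlox. Smooth muscle markers were at 390.1 to 500.9 CPM in QKO and 501.0 and 579.3 CPM in Qlox. Every QKO library had a higher immune sum (264.6 to 3027 CPM) than Qlox (194.8 and 261.1 CPM), with 0 of 10 markers called between them. The part of these cells in the difference was not tested.

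**Figure D4:**
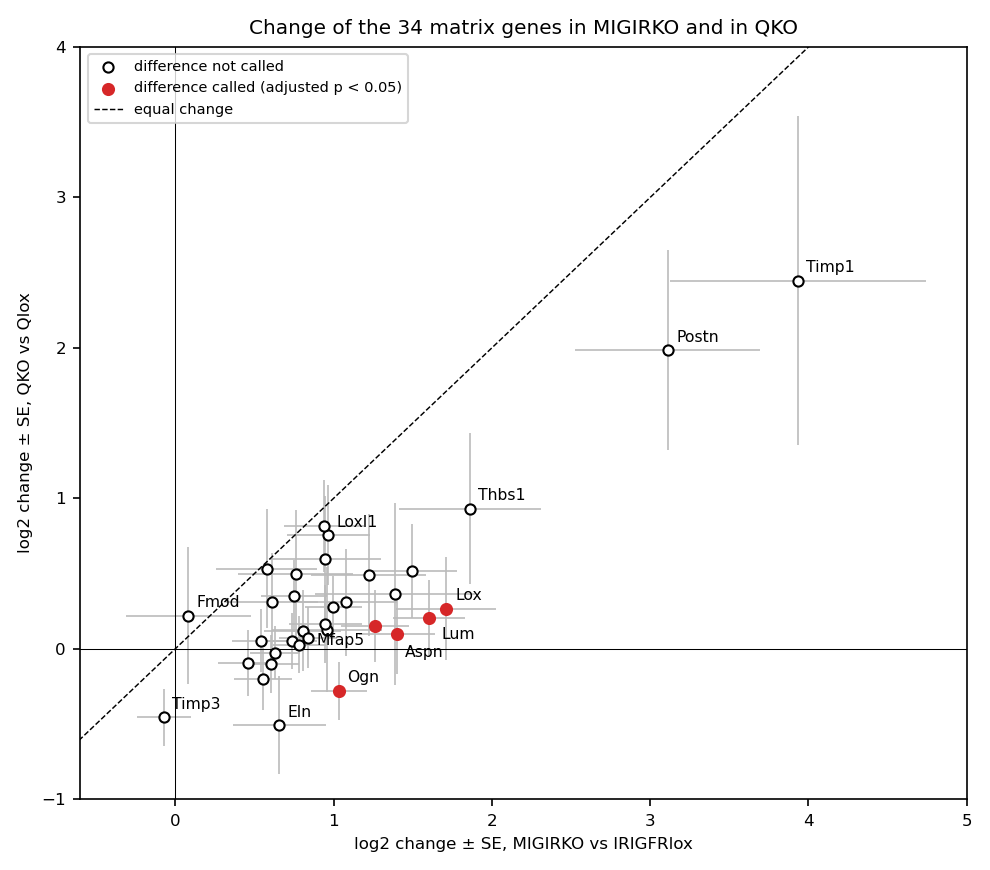
Log2 change in QKO against Qlox (vertical axis) plotted against log2 change in MIGIRKO against IRIGFRlox (horizontal axis) for the 34 genes, with lines for ± SE and a dashed line of equal change. Red points are the 5 genes whose changes differ by test (Lum, Ogn, Aspn, Mfap5 and Lox), which lie below the dashed line at QKO changes between -0.28 and 0.27.

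Set directly against each other, QKO and MIGIRKO differed in 19 of the 34 genes, all lower in QKO. Of all tested genes 30.2% were called, 14.0% as lower in QKO. The colonies differ in this comparison as well as the FoxO genes, and the effects of colony and genotype cannot be told apart in it. Proteoglycans lower in QKO were Lum (-1.04), Aspn (-0.85), Bgn (-0.73), Ogn (-0.68) and Dcn (-0.47). Glycoproteins were Thbs4 (-0.71), Dpt (-0.64) and Thbs2 (-0.46), and elastic fiber genes were Fbln1 (-0.95), Mfap5 (-0.76), Eln (-0.75) and Fbln2 (-0.39). Lox (-0.60), Loxl1 (-0.59), Timp1 (-1.77), Mmp2 (-0.73), Timp2 (-0.56), Mmp14 (-0.55) and Pdgfra (-0.38) made up the rest. Every QKO library was below every MIGIRKO library for 3 of the 34, Ogn, Dpt and Mfap5, as for 2.53% of all tested genes.

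For Ogn the gap was from 90.6 CPM, the highest QKO library, to 106.7 CPM, the lowest MIGIRKO library, for Mfap5 from 44.7 to 46.8 CPM and for Dpt from 61.2 to 64.8 CPM. The median log2 difference was -0.53 over the 34 and -0.03 over all tested genes. In each of the 6 runs QKO and MIGIRKO were both present, and 16 of the 34 genes were lower in QKO in all 6, as were 12.0% of all tested genes. DESeq2 called 20 and limma-voom 22, the count was 12 without QKO 3 or MIGIRKO 5, and it was 15 without the libraries labelled MIRKO 4 and MIGIRKO 6, where Loxl1, Thbs4, Thbs2, Lox and Timp1 lost their call and Fbln5 gained one. Lum, Bgn, Ogn, Aspn, Dpt, Mfap5, Fbln1, Timp2 and Mmp2 were called in every alternative run.

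Markers of other cells were counted in this comparison too, where 30.2% of all tested genes were called, 14.0% as lower in QKO. All 8 adipocyte markers were lower in QKO than in MIGIRKO, among them the adipokines Adipoq (-2.48 ± 0.32, adjusted p = 1.4e-06) and Retn (-3.40 ± 0.52, adjusted p = 1e-05). Of the fibroblast markers 7 of 18 were lower, of the Schwann cell markers 4 of 6, of the smooth muscle markers 3 of 6, of the satellite cell markers 2 of 4, of the tendon markers 2 of 9 and of the immune markers 1 of 10. The tendon and immune shares were near that of all genes lower in QKO, and 0 of 7 endothelial markers were called. Of the 8 muscle fiber markers 6 were higher and 1 lower, the oxygen carrier Mb (2.06 ± 0.23, adjusted p = 6.1e-08) and the fast myosin Myh4 (1.24 ± 0.17, adjusted p = 2.6e-06) among the higher. Their part in the differences of the matrix genes was not tested.

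Across the 8 groups MIGIRKO had the highest mean for 22 of the 34 genes, MIRKO for 7 and IRlox for 4, and IRIGFRlox had the lowest for 19 and Qlox for 11. QKO 6 had the highest QKO share of unscaled counts in the 34 genes (0.631%, the other QKO libraries starting from 0.325%). Its immune markers summed to 3027 CPM against 264.6 to 755.8 CPM in the other 6 QKO libraries. It had the highest QKO level of Postn (180.8 CPM), Bgn (482.8 CPM) and Thbs1 (303.5 CPM).

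**Figure D5:**
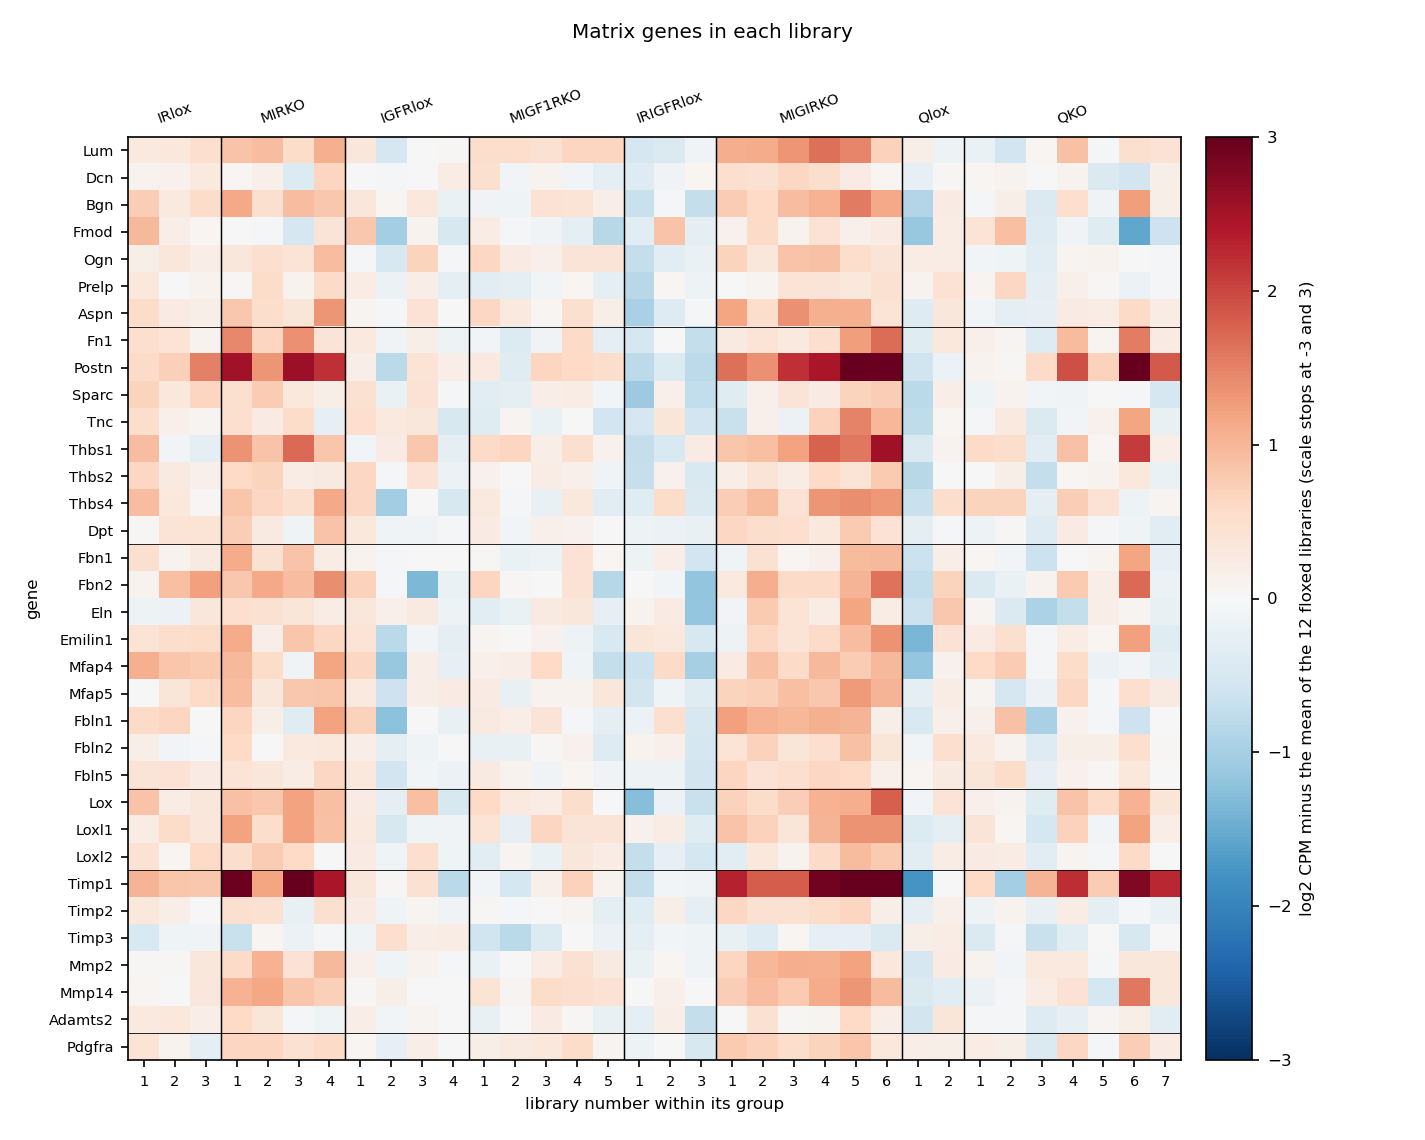
Log2 CPM of the 34 genes (rows, grouped by role) in the 34 libraries (columns, by group), each minus the mean of the 12 floxed libraries, with red for higher and blue for lower and a colour scale that stops at -3 and 3. MIGIRKO columns are red for most genes, IRIGFRlox and Qlox 1 columns mostly blue, and QKO 6 is red for Postn, Timp1 and Thbs1.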

How the data were processed

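Muscle RNA was measured in 34 stranded libraries. The authors deposited raw counts per Ensembl gene, made with STAR and featureCounts on GRCm38.p4 per the submitters' processing notes. Versions, annotation release and strand setting were not given in the sources used here. Of 46071 IDs, 45229 matched a symbol in GENCODE release 21 of the mouse, whose exon lengths gave RPKM. Low genes were removed with filterByExpr, totals were scaled by TMM, and edgeR 4.0.16's quasi-likelihood model (R 4.3.3, limma 3.58.1) was fitted to all libraries. P-values carry Benjamini-Hochberg adjustment over 13646 genes, with calls at an adjusted p under 0.05. Counts at an unadjusted p under 0.05 are given without the share of all tested genes at that threshold, and are not calls. SE is the log2 change over the square root of F. DESeq2 1.42.0, limma-voom, other scalings and filters, runs as a block, other controls and left-out libraries were alternatives. Counts of calls under these alternatives are given without the share of all tested genes called there. The procedure was tested on simulated data.

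The members and lists were chosen with earlier results of these data known. Values per library were given for called members, up to 5 per role by adjusted p, for the most abundant member of each role in the floxed groups, and in MIRKO, MIGF1RKO and QKO for members with small p or called differences. Other lists give up to 3 called genes each. Genes beyond that rule (Itgb5, Timp4 and Nid2, and the members Fn1 and Fmod among them) were named after their values were seen. Depth limits weakly expressed members such as Fbn2 and Timp1.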

Additional observations from a re-analysis of the deposited data

Results flagged for a closer look

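A gap test for 1 far-lying library was applied to 170 combinations of gene and group with at least 4 libraries. It found 15, and 8 of the 15 were in QKO 6. A rate of 1 in 20 would give 8.5, but that rate assumes normal values and independent tests. CPM was not transformed here and the genes share libraries, so no excess can be read from these counts. In QKO 6, Bgn was at 482.8 CPM (other QKO libraries 149.7 to 290.6 CPM), Postn at 180.8 CPM (21.9 to 83.0 CPM), Tnc at 107.2 CPM (35.0 to 57.8 CPM) and Thbs1 at 303.5 CPM (55.5 to 130.3 CPM). In the same library Fbn1 was at 538.9 CPM (151.9 to 250.1 CPM), Fbn2 at 4.45 CPM (0.851 to 2.25 CPM), Emilin1 at 24.7 CPM (8.14 to 14.6 CPM) and Mmp14 at 88.3 CPM (20.3 to 39.8 CPM).

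The other 7 were spread over 6 libraries. Prelp was at 113.2 CPM in QKO 2 (59.5 to 81.1 CPM in the rest of its group), and Fn1 at 280.5 CPM in MIGF1RKO 4 (141.2 to 175.6 CPM). Dpt was at 64.9 CPM in IGFRlox 1 (47.5 to 49.8 CPM) and Mfap5 at 19.0 CPM in IGFRlox 2 (33.5 to 35.9 CPM). In MIGIRKO 6 Fbln1 was low at 16.8 CPM (29.6 to 35.2 CPM) and Lox high at 173.8 CPM (73.7 to 107.1 CPM). Timp2 was at 171.4 CPM in MIRKO 3 (275.1 to 279.2 CPM).

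The change differed between genotypes, by edgeR's test of the difference, for the 5 genes with a smaller change in QKO than in MIGIRKO: Lum (-1.40), Ogn (-1.31), Aspn (-1.30), Mfap5 (-1.11) and Lox (-1.44). It also differed for the 13 with a larger change in MIGIRKO than in MIGF1RKO: Lum (1.04), Bgn (1.45), Ogn (0.75), Aspn (1.19), Postn (2.80), Sparc (1.03), Thbs2 (0.91), Mfap5 (1.21), Lox (1.57), Loxl2 (1.06), Timp1 (3.90), Timp2 (0.70) and Mmp2 (0.87).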

How the results depend on the processing

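The direction of all 27 MIGIRKO calls held under every alternative, and 16 of them stayed called in each: Lum, Aspn, Ogn, Bgn, Postn, Dpt, Thbs1, Mfap5, Fbln5, Lox, Loxl1, Timp1, Timp2, Mmp2, Mmp14 and Pdgfra. Their count was 18 to 29 when libraries were left out in turn. With library totals in place of scaling factors the median of all tested genes moved to 0.53 in MIGIRKO. Plain totals shift all genes where mean scaling factors differ, as between MIGIRKO (1.23) and IRIGFRlox (0.876) or MIRKO (1.14) and IRlox (0.950). With plain totals the members' medians were 0.58 in MIRKO, 1.44 in MIGIRKO and -1.17 for the QKO and MIGIRKO difference. They were 0.91 and 1.25 for MIGIRKO against the MIRKO and MIGF1RKO changes, and -0.91 for QKO against MIGIRKO. These medians and the counts with plain totals include the shift of all genes, whose median is given for MIGIRKO only. Counts there were 1 in MIRKO, 17, 26 and 32 for the QKO and MIGIRKO difference, the MIGIRKO and MIGF1RKO difference and QKO against MIGIRKO. Shares of all tested genes called are not given for this or the other alternatives. With all floxed libraries as control the MIRKO count was 17 and its median 0.56, the MIGIRKO median 0.59 and the QKO count 2. DESeq2 called 1 member in MIRKO and 1 in MIGF1RKO. Fits to the compared groups alone called 2 for the QKO and MIGIRKO difference and 1 between floxed groups, and no filter called 5 for the MIGIRKO and MIGF1RKO difference. Without MIRKO 4 and MIGIRKO 6 the differences of MIGIRKO from QKO and MIRKO were called for 8 and 4, and without QKO 5 and QKO 6 there were 8 for the former and 1 (Mmp14) in MIRKO. Leaving out libraries in turn gave 0 to 1 calls in MIGF1RKO, 2 to 9 for the QKO and MIGIRKO difference (median -0.996 to -0.34), 1 to 15 for the MIGIRKO and MIGF1RKO difference, 12 to 27 for QKO against MIGIRKO and a QKO median of -0.066 to 0.62. The MIGF1RKO median turned from 0.06 to -0.056 without IGFRlox 2. Changes of single members were followed for those called and a few more in each comparison, and among these signs turned in changes that were not called: in MIGF1RKO, Mfap5 (-0.13 without IGFRlox 2, -0.0081 without MIGF1RKO 5, up to 0.13) and Lox (-0.031 without IGFRlox 4, up to 0.50); in MIGIRKO, Fmod (-0.12 without IRIGFRlox 1, -0.10 without IRIGFRlox 3) and Timp3 (0.42 with library totals); in QKO, Aspn (-0.039 without QKO 5 and QKO 6, -0.22 without Qlox 1, -0.0042 without QKO 6, up to 0.52) and Mfap5 (-0.068 without Qlox 1). The causes were not tested. No paired analysis was possible because no label ties a knockout mouse to a control.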

Other observations

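Of the 76 tested genes of the 4 lists, 3 were called in the test of QKO against MIGIRKO changes, where 5.76% of all tested genes were. The QKO change was smaller than the MIGIRKO change for the basement membrane genes Lama4, a laminin chain of vessels (-0.89 ± 0.27, adjusted p = 0.043), and Nid1, which links laminin to collagen IV (-0.79 ± 0.24, adjusted p = 0.046). Mstn went the other way (2.52 ± 0.59, adjusted p = 0.012). In MIRKO, where none of the 34 genes was called by edgeR, the matrix receptor Sdc4 was higher (0.89 ± 0.22, adjusted p = 0.035). Sdc4 was also higher in MIGIRKO (0.72 ± 0.20, adjusted p = 0.0056) and lower in QKO than in MIGIRKO (-0.83 ± 0.15, adjusted p = 8.4e-05).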
